A study of Mus musculus with 16 samples.

Results

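Hepatocyte identity in the mouse liver is kept by a small group of transcription factors, and 9 of them were examined here: Hnf4a, Foxa1, Foxa2, Foxa3, Cebpa, Cebpb, Onecut1, Prox1 and Nr5a2. They were taken by gene symbol, with earlier results of these data known, and are 9 of the 24357 genes tested. For each factor the brightest probe by its mean was read, and the other probes of Foxa2 and Nr5a2 served as a check. The question was whether these factors changed when the liver was injured repeatedly with CCl4, and whether absence of lipocalin 2, the secreted protein encoded by Lcn2, changed their level or their response.

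Liver RNA was measured on 16 Agilent 1-colour arrays, each labelled as a separate replicate. The WT mice made up 4 control and 5 CCl4 arrays, the Lcn2-/- mice 3 control and 4 CCl4 arrays. All animals were male BALB/c mice that were 6 to 8 weeks old when treatment began. CCl4, a solvent that cytochrome P450 in hepatocytes turns into a toxic radical, was injected into the peritoneum at 0.5 ml/kg, 2 times per week for 4 weeks, and livers were collected after a further 48 h. Control mice of both genotypes received the corn oil vehicle. The Lcn2 deletion is present in every cell of the body, and the line was made on a mixed strain background before it was backcrossed to BALB/c.

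Hepatocyte identity factors act as a network. HNF4A is a nuclear receptor that binds the regulatory regions of a large share of liver genes, and the FOXA proteins open chromatin for it. C/EBP proteins, ONECUT1, PROX1 and NR5A2 bind many of the same regions, and several of these factors control each other's genes. Loss of HNF4A or C/EBP alpha in adult hepatocytes is known to reduce the expression of secreted proteins and metabolic enzymes, so the levels of these factors are often read as a sign of hepatocyte differentiation in chronic injury.

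All levels below are log2 signals after quantile normalization, a scale on which a difference of 1 is a doubling. On the 16 arrays 51.6% to 60.9% of gene spots were well above background. Lcn2 separated the genotypes as labelled, with 13.80 to 17.57 on the WT arrays and 10.46 to 12.25 on the Lcn2-/- arrays. The tissue label was borne out by hepatocyte markers: 15 of 17 listed genes, Alb, Apoa1 and Ttr among them, had a probe well above background on all 16 arrays. Of 8 pancreas markers, each by its most often detected probe, Pnlip, Gcg and Ptf1a were well above background on 0 arrays, Cpa1 on 1 and Cela2a on 3, but Amy2a5, Ins2 and Ctrb1 were so on all 16. Of 6 adipose markers Lep was well above background on 0 arrays, Adipoq and Plin1 on 1 each and Retn on 5, but Cidea and Adrb3 were so on all 16. The controls numbered 3 stood apart from the other controls of their genotype in leukocyte markers. The mean log2 level of 9 neutrophil markers was 12.56 on Lcn2-/- control 3 against 9.16 and 9.19, and 11.27 on WT control 3 against 9.48 to 9.91. The mean of 9 macrophage markers was 12.21 on WT control 3 against 10.37 to 11.10, and 10.80 on Lcn2-/- control 3 against 9.88 and 9.97, and WT control 3 had the Lcn2 level of 17.57. All controls and WT CCl4 1 were hybridised on slide 1, the other CCl4 arrays on slide 2. The row of arrays on a slide followed genotype except for WT CCl4 1, so row and genotype cannot be told apart. Same-numbered controls of the genotypes lay in the same column of slide 1, so their number and column cannot be told apart. P-values measure the spread between arrays that the labels number as replicates of a group.

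For most of the identity factors no CCl4 difference beyond the spread between arrays was detected. In WT mice 1 of the 9 factors passed the threshold (limma adjusted p under 0.05), a fall of Nr5a2, where 16.7% of all genes tested passed in either direction and 8.63% passed with a lower level. In Lcn2-/- mice 0 of 9 passed by limma, against 12.1% of all genes, and 1 of 9, again Nr5a2, had an unadjusted p under 0.05, as did 27.0% of all genes. In the response averaged over both genotypes 1 of 9 passed, against 30.3% of all genes, and 2 of 9, Nr5a2 and Foxa3, had an unadjusted p under 0.05, as did 41.4% of all genes. The median difference over the 9 factors was -0.19, and over all genes tested it was -0.03. With each array scaled by its 75th percentile instead, these medians were -0.33 and -0.15. With quantile normalization, 7 of the 9 factors had a lower mean with CCl4 in the averaged response and 2 a higher mean.

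**Figure D1:**
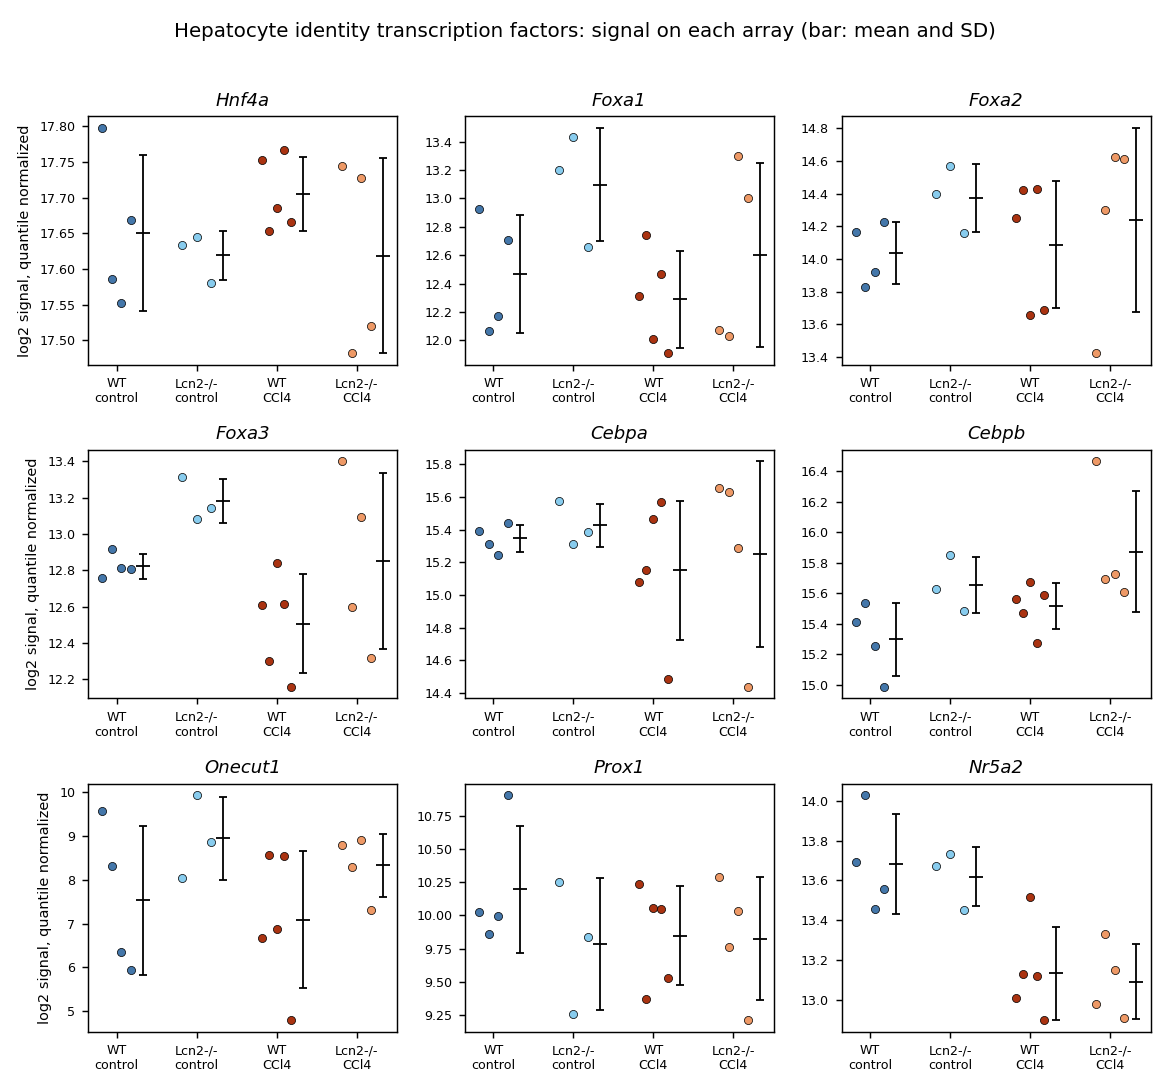
Log2 signal (vertical axis, quantile normalized) of the 9 factors on each array (points), by group on the horizontal axis, with the mean and SD of the group as a bar; vertical scales differ between panels. Nr5a2 sits between 13.45 and 14.03 in the controls and between 12.89 and 13.51 in the CCl4 groups, which overlap through WT CCl4 3, and the points of the other factors overlap between treatments too.

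Nr5a2, also called liver receptor homolog 1, is an orphan nuclear receptor that drives genes of bile acid and cholesterol metabolism. Its main probe lies at chr1:138740903-138740962 on the minus strand of mm9. The signal was 13.69, 14.03, 13.46 and 13.55 in WT control and 13.01, 13.13, 13.51, 13.12 and 12.89 in WT CCl4. It was 13.67, 13.73 and 13.45 in Lcn2-/- control and 12.98, 13.33, 13.15 and 12.91 in Lcn2-/- CCl4. All 4 Lcn2-/- CCl4 arrays lay below the 3 Lcn2-/- controls, whereas WT CCl4 3 lay inside the range of the WT controls. Groups without overlap in either direction occurred for 24.8% of all genes in the Lcn2-/- comparison. With 75th percentile scaling the Nr5a2 groups did not overlap in either genotype. The signal above the array's 75th percentile was 3.15 to 3.84 in WT control and 2.69 to 3.11 in WT CCl4. It was 3.20 to 3.58 in Lcn2-/- control and 2.64 to 2.97 in Lcn2-/- CCl4. On that scale 26.2% of all genes had no overlap in the Lcn2-/- comparison, and the share for WT was not counted.

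The Nr5a2 signal was lower with CCl4 in both genotypes. With limma it fell by 0.55 in WT (SE 0.148, adjusted p 0.0205), and in Lcn2-/- the difference was -0.53 (SE 0.169, limma adjusted p 0.0564), short of the threshold. Averaged over genotypes Nr5a2 fell by 0.54 (95% confidence interval -0.78 to -0.30, limma adjusted p 0.00258). Without the controls numbered 3 the WT difference was -0.63 (limma adjusted p 0.0136), the Lcn2-/- difference -0.61 (limma adjusted p 0.0465) and the averaged one -0.62 (limma adjusted p 0.00215). The difference between the genotypes' responses was 0.02, with a 95% confidence interval from -0.46 to 0.50. On slide 1, which holds controls of both genotypes and 1 treated animal, WT CCl4 1 differed from the WT controls by -0.67, and the 4 treated WT arrays of slide 2 differed from those controls by -0.52. With slide as a term in the model the WT call was lost (difference -0.67, limma adjusted p 0.149), as was the averaged call (difference -0.68, limma adjusted p 0.151), in a fit where WT CCl4 1 is the only treated array that shares a slide with controls. The WT call was also lost without WT control 1 (limma adjusted p 0.0569) or WT control 2 (difference -0.43, limma adjusted p 0.0796).

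A further Nr5a2 probe, at chr1:138741712-138741771, did not pass the threshold. It measured between 8.85 and 9.35 on the 16 arrays, with a difference of -0.16 in WT (limma adjusted p 0.396) and of -0.09 in Lcn2-/- (limma adjusted p 0.725). To ask whether the probes differ in their response, the signal of this probe was subtracted from that of the main probe on each array. The CCl4 groups were lower than the controls in this quantity by -0.39 in WT (exact two-sided permutation p = 0.0952, n = 5 and 4) and by -0.44 in Lcn2-/- (exact two-sided permutation p = 0.0571, the smallest that the 35 splits allow). Adjusted over the 4 such comparisons made for Nr5a2 and Foxa2, these exact p-values were 0.127 and 0.114. Both probes are annotated to the same transcript, and which exon or UTR holds them was not analysed here.

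Nr5a2 has 2 annotated starts in the RefSeq table used here, and both upstream regions are shown because Nr5a2 was the factor that moved. They are the 250 bases before each start on GRCm38.p6, at chr1:136960449-136960698 and chr1:136953631-136953880 on the minus strand, credited to RefSeq and printed 5′ to 3′ with matches in capitals. Capitals mark a match on either strand to the letters CAAAGTCCA (HNF4), GTTAATNAT (HNF1), TGTTTAC (FOXA), TTGCNNAA (C/EBP), ATCAAT (ONECUT) or TCAAGGTCA (NR5A), and no matches overlapped in these windows.
Nr5a2 start 1: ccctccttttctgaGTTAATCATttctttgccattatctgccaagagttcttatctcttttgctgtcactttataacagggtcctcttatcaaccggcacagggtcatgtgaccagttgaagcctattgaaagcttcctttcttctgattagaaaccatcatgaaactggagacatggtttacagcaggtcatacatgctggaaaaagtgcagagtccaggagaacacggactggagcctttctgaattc
Nr5a2 start 2: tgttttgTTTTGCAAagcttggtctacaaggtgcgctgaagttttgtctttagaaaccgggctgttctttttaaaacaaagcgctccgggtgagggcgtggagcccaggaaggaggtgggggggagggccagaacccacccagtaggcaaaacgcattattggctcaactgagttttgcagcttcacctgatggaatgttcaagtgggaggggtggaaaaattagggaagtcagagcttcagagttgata
The region of start 1 held 1 match, to the HNF1 letters, which 0.737% of all 32851 promoter windows of this length held. The region of start 2 held 1 match, to the C/EBP letters, found in 9.56% of all windows. Over the 14 windows of the 9 factors, the FOXA letters matched in Foxa1 alone (3.17% of all windows) and the ONECUT letters in Foxa2 and Hnf4a (6.72% of all windows), and the HNF4 and NR5A letters matched in 0 of the 14 (0.384% and 0.387% of all windows). These are matches of letters only.

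**Figure D2:**
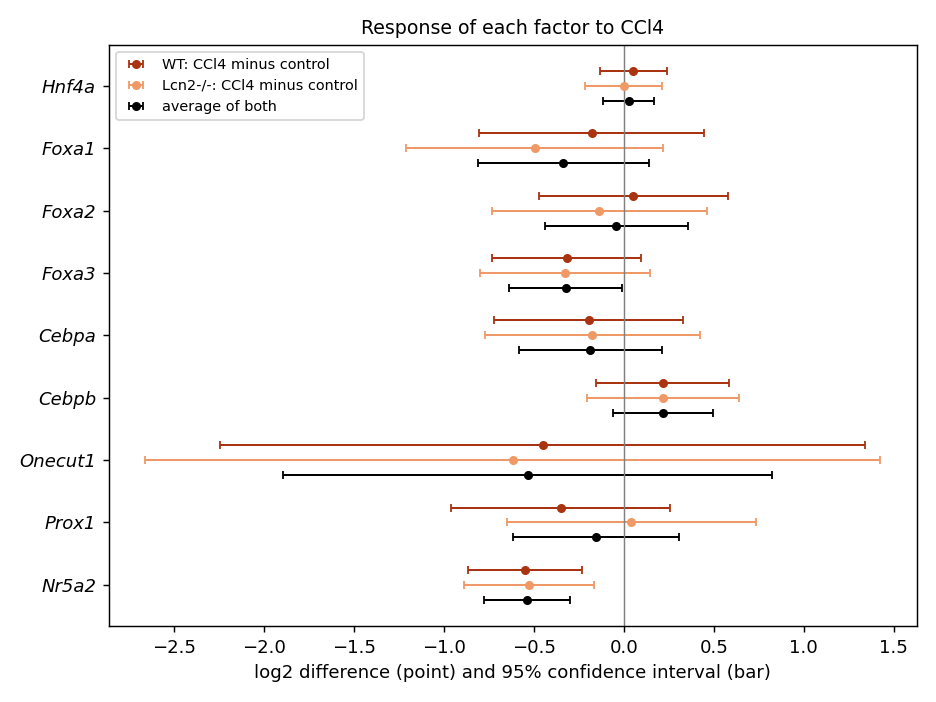
CCl4 minus control on the log2 scale (horizontal axis) for each factor in WT, in Lcn2-/- and averaged over both, with 95% confidence intervals as bars. Nr5a2 is at -0.55, -0.53 and -0.54, and the bars of the averaged response include 0 for 7 of the 8 other factors, Foxa3 reaching from -0.64 to -0.01.

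Hnf4a, the nuclear receptor at the centre of the network, was the steadiest of the 9 on this scale. Its probe (chr2:163398548-163398607, plus strand, mm9) measured 17.80, 17.59, 17.55 and 17.67 in WT control and 17.75, 17.65, 17.69, 17.77 and 17.67 in WT CCl4. It measured 17.63, 17.64 and 17.58 in Lcn2-/- control and 17.74, 17.48, 17.73 and 17.52 in Lcn2-/- CCl4. The control and CCl4 arrays of each genotype overlapped. The averaged CCl4 response was 0.03 (95% confidence interval -0.12 to 0.17, limma adjusted p 0.793), and the pooled SD within groups was 0.0937, against a median of 0.299 over all genes.

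The small CCl4 difference of Hnf4a depended on the scaling. Hnf4a ranked between the 98.0 and the 98.5 percentile of the genes on every array, and quantile normalization gives the same set of values to every array, so it leaves little room for the brightest genes to move together. With each array scaled by its 75th percentile instead, the averaged Hnf4a difference was -0.31 (SE 0.105, limma adjusted p 0.0340), with a pooled SD of 0.184. The signal above the array's 75th percentile was then 7.16 to 7.81 in WT control, 7.47 to 7.75 in Lcn2-/- control, 6.92 to 7.36 in WT CCl4 and 7.19 to 7.39 in Lcn2-/- CCl4, so the Lcn2-/- groups no longer overlapped, as held on this scale for 26.2% of all genes in either direction. The Lcn2-/- CCl4 arrays lay below the controls without overlap for 18.1% of all genes and for 54.5% of the 705 brightest genes described next. That scaling moved the median of all genes to -0.15, and relative to this median Hnf4a stood at -0.15. Other bright genes moved too: over the 705 genes above a mean percentile of 97, the median averaged response was -0.01 with quantile normalization and -0.41 with the 75th percentile, and 35 and 458 of them passed as lower. Which scaling is nearer to the RNA content of the livers was not tested.

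**Figure D3:**
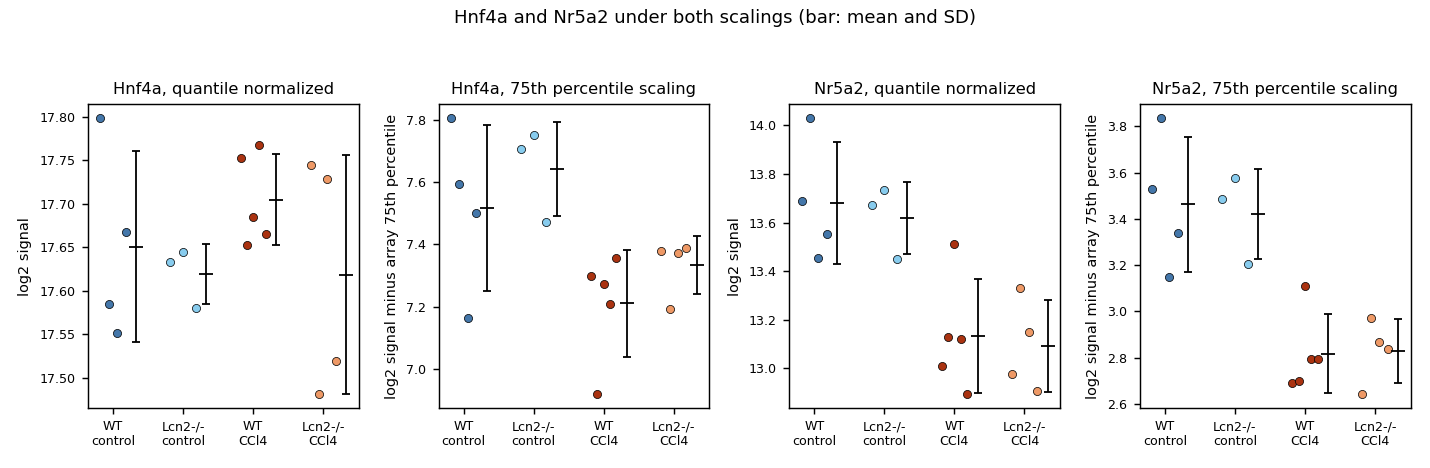
Hnf4a and Nr5a2 on each array by group, as quantile-normalized log2 signal and as log2 signal minus the array's 75th percentile, with mean and SD as bars. Hnf4a shows an averaged CCl4 difference of 0.03 on the first scale and -0.31 on the other, while Nr5a2 is lower with CCl4 on both (-0.54 and -0.62).

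The Hnf4a locus also encodes an antisense RNA, Hnf4aos, named here after its values were seen. Its probe (chr2:163319601-163319660, minus strand, mm9) is matched by accession, and the array's probes have a strand, so it is read apart from Hnf4a. Hnf4aos measured 12.64, 12.21, 12.02 and 12.79 in WT control and 10.54, 10.49, 10.69, 11.46 and 11.42 in WT CCl4, with no overlap, as held for 17.4% of all genes in that comparison. It measured 12.82, 12.94 and 12.39 in Lcn2-/- control and 12.14, 11.78, 12.63 and 12.62 in Lcn2-/- CCl4, which overlap. With CCl4 Hnf4aos fell by 1.50 in WT (SE 0.259, limma adjusted p 0.00120). The Lcn2-/- difference was -0.43 (limma adjusted p 0.381). Under CCl4 it was higher in Lcn2-/- than in WT by 1.37 (limma adjusted p 0.0297), a call lost in 9 of the settings tried, among them slide 2 arrays alone (1.27, limma adjusted p 0.126) and 6 of the fits that left out 1 array. The test of the difference between the responses gave 1.07 with an unadjusted p of 0.0164 and a limma adjusted p of 1.00, so a difference between genotypes in this response is not shown.

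Hnf4a has 2 annotated starts, and their upstream regions are shown because the antisense gene spans the first of them. Hnf4aos extends over chr2:163493804-163541721 on GRCm38.p6, which covers the region before start 1 (chr2:163506607-163506856) but not that before start 2 (chr2:163546905-163547154), both on the plus strand.
Hnf4a start 1: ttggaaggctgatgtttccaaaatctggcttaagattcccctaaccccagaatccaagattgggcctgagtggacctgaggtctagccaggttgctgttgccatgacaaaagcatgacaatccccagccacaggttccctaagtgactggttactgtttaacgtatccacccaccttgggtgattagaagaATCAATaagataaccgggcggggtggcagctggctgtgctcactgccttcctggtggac
Hnf4a start 2: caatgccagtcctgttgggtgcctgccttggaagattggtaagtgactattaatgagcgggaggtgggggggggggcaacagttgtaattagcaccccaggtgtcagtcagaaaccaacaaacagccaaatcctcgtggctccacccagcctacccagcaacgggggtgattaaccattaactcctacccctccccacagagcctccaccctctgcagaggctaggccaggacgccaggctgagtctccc
Capitals in the region of start 1 mark the match to the ONECUT letters given above, and the region of start 2 held 0 matches.

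The FOXA factors, forkhead proteins that bind closed chromatin early in liver development, did not pass the threshold in the CCl4 comparisons over all 16 quantile-normalized arrays. Foxa3 (probe chr7:19599053-19599112, mm9) came nearest. Its signal was 12.76, 12.92, 12.81 and 12.81 in WT control and 12.61, 12.30, 12.84, 12.62 and 12.16 in WT CCl4. It was 13.32, 13.08 and 13.14 in Lcn2-/- control and 13.40, 12.60, 13.09 and 12.32 in Lcn2-/- CCl4. The treated arrays spread more widely than the controls and overlapped them in both genotypes. The averaged difference was -0.32 (95% confidence interval -0.64 to -0.01) with an unadjusted p of 0.0449 and a limma adjusted p of 0.112. Foxa3 passed with 75th percentile scaling (difference -0.40, limma adjusted p 0.0305) and without Lcn2-/- CCl4 1 (difference -0.41, limma adjusted p 0.0283).

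Foxa1 (probe chr12:58641764-58641823, mm9) measured 12.06 to 12.93 in WT control, 12.66 to 13.44 in Lcn2-/- control, 11.91 to 12.74 in WT CCl4 and 12.03 to 13.30 in Lcn2-/- CCl4. Its averaged difference was -0.34 (95% confidence interval -0.81 to 0.14, limma adjusted p 0.270). Foxa2 (probe chr2:147868669-147868728, mm9) measured 13.83 to 14.22, 14.16 to 14.57, 13.66 to 14.43 and 13.42 to 14.62 in the same order of groups, with an averaged difference of -0.04 (95% confidence interval -0.44 to 0.36, limma adjusted p 0.887). A second Foxa2 probe, which overlaps the main one by a few bases of the genome, gave -0.22 (limma adjusted p 0.483). The main probe minus this probe was higher with CCl4 by 0.13 in WT and by 0.23 in Lcn2-/-. The exact two-sided permutation p was 0.238 and 0.0571, and 0.238 and 0.114 after the adjustment used for Nr5a2. The treated arrays were split in Foxa2, with WT CCl4 3, WT CCl4 5 and Lcn2-/- CCl4 1 at 13.66, 13.69 and 13.42 and the other treated arrays between 14.25 and 14.62. After removal of the group means Foxa1 and Foxa2 had a Pearson r of 0.799 over the 16 arrays, and Foxa2 and Cebpb one of -0.716. These were the highest and the lowest of the 36 pairs of factors and are given as a description, since the arrays share their scaling.

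The C/EBP factors are leucine zipper proteins. Cebpa sustains metabolic genes of the resting hepatocyte, and Cebpb is known to rise in the acute phase response and in regeneration. Cebpa (probe chr7:35906517-35906576, mm9) measured 15.39, 15.31, 15.25 and 15.44 in WT control and 15.08, 15.15, 15.47, 15.57 and 14.48 in WT CCl4. It measured 15.57, 15.31 and 15.39 in Lcn2-/- control and 15.65, 15.63, 15.29 and 14.44 in Lcn2-/- CCl4. WT CCl4 5 and Lcn2-/- CCl4 4 stood below every other array, and the other treated arrays overlapped the controls. The averaged difference was -0.19 (95% confidence interval -0.58 to 0.21, limma adjusted p 0.481). Without both of these arrays, an analysis added after seeing the data, the Lcn2-/- difference was 0.10 (limma adjusted p 0.717) in place of -0.17. Only Lcn2-/- CCl4 4 bears on that difference, and WT CCl4 5 only on its p-value. Without WT CCl4 5 the WT difference was -0.03 in place of -0.20.

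Those arrays and some controls were low for several factors. WT CCl4 5 was the lowest array of its group for 5 of the 9 factors, and Lcn2-/- CCl4 4 for 6 of the 9. Lcn2-/- control 3 was the lowest of its group for 5 of the 9 as well. With 75th percentile scaling the counts were 2, 4 and 7, and WT control 3 was the lowest of its group for 5. Those controls are the ones with more leukocyte marker signal, whose part in these levels was not tested. WT CCl4 5 and Lcn2-/- CCl4 4 held 56.4% and 52.3% of spots well above background, within the range of the other arrays.

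Cebpb (probe chr2:167515828-167515887, mm9) measured 15.41, 15.54, 15.25 and 14.98 in WT control and 15.56, 15.47, 15.67, 15.28 and 15.59 in WT CCl4. It measured 15.63, 15.85 and 15.48 in Lcn2-/- control and 16.46, 15.69, 15.72 and 15.61 in Lcn2-/- CCl4. Lcn2-/- CCl4 1 stood above every other array, and treated and control arrays overlapped in both genotypes. The averaged difference of 0.22 (95% confidence interval -0.06 to 0.50, limma adjusted p 0.226) did not pass, and the high Lcn2-/- CCl4 1 array raised it.

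Onecut1, the cut-homeodomain protein also named HNF6, acts in hepatocytes and in bile duct cells. Its probe (chr9:74710921-74710980, mm9) was well above background on 15 of the 16 arrays and ranked between the 5.32 and the 51.6 percentile of genes. It measured 9.57, 8.31, 6.35 and 5.93 in WT control and 6.68, 8.56, 6.88, 8.55 and 4.79 in WT CCl4. It measured 8.05, 9.95 and 8.86 in Lcn2-/- control and 8.81, 8.30, 8.90 and 7.32 in Lcn2-/- CCl4. The SD was 1.70 in WT control and 1.57 in WT CCl4, and the groups overlapped. The mean was lower in WT CCl4 than in WT control, but without WT CCl4 5, at 4.79, it was higher. The pooled SD of 1.35 lay at the 98.8 percentile of all genes, and the averaged difference was -0.53 with a 95% confidence interval from -1.89 to 0.82 (limma adjusted p 0.560). A change of the size seen for Nr5a2 was therefore not detectable for Onecut1.

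The spread of Onecut1 was shared by a neighbouring probe. Of all genes tested, LOC100048479 was the most like Onecut1 over the 16 arrays (Pearson r 0.965, and 0.961 after removal of the group means). Its probe lies at chr9:74737402-74737461 on the same strand of mm9, 26421 bases downstream of the Onecut1 probe, and it was well above background on all 16 arrays. LOC100048479 measured 15.21, 14.62, 12.31 and 11.41 in WT control and 11.73, 14.33, 12.61, 13.81 and 10.60 in WT CCl4. It measured 13.51, 15.78 and 14.15 in Lcn2-/- control and 14.15, 13.42, 14.12 and 13.48 in Lcn2-/- CCl4. The Onecut1 gene is 27728 bases long on GRCm38.p6, and whether the LOC100048479 probe reads the same transcript was not tested.

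Prox1, a homeodomain protein of hepatocytes and of lymphatic endothelium, measured 10.02, 9.86, 10.00 and 10.91 in WT control and 10.24, 9.37, 10.06, 10.05 and 9.53 in WT CCl4 (probe chr1:191945785-191945844, mm9). It measured 10.25, 9.26 and 9.84 in Lcn2-/- control and 10.29, 9.76, 10.04 and 9.21 in Lcn2-/- CCl4. The 4 groups overlapped, with WT control 4 above the rest. The averaged difference was -0.15 (95% confidence interval -0.61 to 0.31, limma adjusted p 0.626), and the high WT control 4 array made it more negative. The lymphatic endothelium markers had 3 of 6 genes higher in the averaged response, where 14.1% of all genes were higher. These were Pdpn, Lyve1 and Reln (2.47, 1.72 and 1.03), while Flt4, Ccl21a and Mmrn1 did not pass. In WT 3 of 6 were higher (8.05% of all genes), and in Lcn2-/- 2 of 6 (6.56% of all genes). Reln, among the called genes, is also listed as a stellate cell marker. The summed level of the lymphatic endothelium markers was 10.94 to 12.51 on the control arrays and 12.42 to 13.71 on the CCl4 arrays. Which cells gave these marker signals, and the part of lymphatic endothelium in the Prox1 signal, were not tested.

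Loss of Lcn2 moved 0 of the 9 factors past the threshold. The Lcn2-/- mean was above the WT mean for 6 of the 9 and below it for 3, in controls and also under CCl4. The median difference was 0.34 in controls and 0.15 under CCl4, and over all genes it was -0.01 in each. Under CCl4, 0 of 9 passed by limma (0.649% of all genes passed), and the count at an unadjusted p under 0.05 was 0 (13.6% of all genes). In controls 0 of 9 passed by limma (0.517% of all genes), also with the replicate number as a block. Without that block 0 had an unadjusted p under 0.05 (8.31% of all genes). Between same-numbered controls, which the labels do not call pairs, Foxa1, Foxa2, Foxa3, Cebpa and Cebpb were higher in Lcn2-/- each time. Nr5a2 was lower each time, and Hnf4a, Onecut1 and Prox1 went both ways. Some of these gaps were very small. Cebpa was at 15.31 on both controls numbered 2, and Nr5a2 at 13.46 and 13.45 on those numbered 3. The share of all genes that keep their direction over these controls was not counted, so the directions are a description only. The interaction passed for 0 of 9 (0.0534% of all genes) with 0 at an unadjusted p under 0.05 (3.31% of all genes). The groups of Foxa3 did not overlap in controls, with the Lcn2-/- arrays at 13.08 to 13.32 above the WT arrays at 12.76 to 12.92, as happened for 9.73% of all genes in that comparison. The difference for Foxa3 was 0.36 (95% confidence interval -0.12 to 0.83, limma adjusted p 0.813).

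The genotype differences had wide intervals for several factors. Onecut1 was at 1.41 (95% confidence interval -0.63 to 3.45) in controls and 1.24 (-0.55 to 3.03) under CCl4, Lcn2-/- minus WT. Foxa1 was at 0.63 (-0.08 to 1.34) in controls and 0.32 (-0.31 to 0.94) under CCl4. Cebpb stood at 0.36 in both comparisons (-0.06 to 0.78 and -0.01 to 0.73). Its value under CCl4, and that within slide 2 below, include Lcn2-/- CCl4 1. That array was at 16.46, against 15.61 to 15.72 on the other arrays of its group. The intervals for Hnf4a were the narrowest, -0.24 to 0.18 in controls and -0.27 to 0.10 under CCl4. Within slide 2, which holds 4 CCl4 arrays of each genotype, the count past the threshold was again 0, with 0.37 for Cebpb and 0.37 for Foxa3 in an analysis added after seeing the data.

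**Figure D4:**
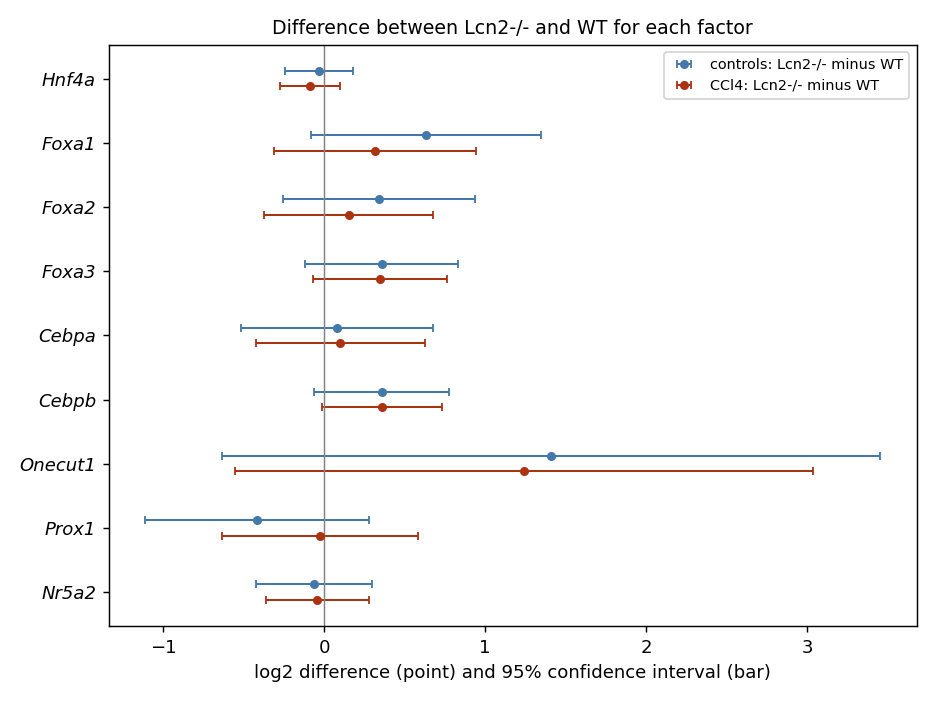
Lcn2-/- minus WT on the log2 scale (horizontal axis) for each factor, in controls and under CCl4, with 95% confidence intervals as bars. All 18 intervals, from quantile-normalized signal, include 0, and the widest are those of Onecut1.

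Of 30 further factors of the hepatocyte network tested, 4 rose and 3 fell in the averaged response (median difference 0.01, all genes -0.03), where 30.3% of all genes passed in either direction. Nr1i3, the nuclear receptor CAR that governs drug metabolism, fell by 1.18 (SE 0.175, limma adjusted p 0.000173). Tbx3, a factor of hepatoblasts and of pericentral hepatocytes, fell by 0.64 (limma adjusted p 0.000860). Gata6, a zinc finger factor of the early endoderm, rose by 0.68 (limma adjusted p 0.000787), and Nr1i2, the nuclear receptor PXR, rose by 0.49 (limma adjusted p 0.0213). With 75th percentile scaling the counts were 2 higher and 4 lower.

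Counts of called targets are to be read against the 30.3% of all genes that passed in the averaged response, or 34.9% with 75th percentile scaling. The direction of the calls depended on the scaling, and 75th percentile scaling also moved the median of all genes from -0.03 to -0.15. Of 22 HNF4A targets 3 rose and 0 fell in the averaged response (median 0.03): Apoa4 and Apoc2, apolipoproteins of lipid transport, rose by 2.38 and 0.66 (limma adjusted p 7.54e-05 and 4.27e-05), and Pklr, the liver pyruvate kinase, by 0.82 (limma adjusted p 0.00417). With 75th percentile scaling 2 were higher and 7 lower (median -0.17). Of 11 FOXA targets 3 rose and 0 fell (median 0.15). Afp, the fetal albumin relative, rose by 3.23 (limma adjusted p 0.000165), and Igfbp1 and G6pc, genes of the fasting response, rose by 1.69 and 1.15 (limma adjusted p 0.0115 and 0.00540). With the other scaling 3 were higher and 3 lower.

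Of 15 C/EBP targets 2 rose and 3 fell (median -0.01). The acute phase genes Saa2, Orm2 and Orm1 fell by 1.45, 0.69 and 0.62 (limma adjusted p 0.00469, 0.00324 and 0.00535), while G6pc rose by 1.15. With 75th percentile scaling 1 was higher and 6 lower. Of 10 bile acid and cholesterol genes under NR5A2, PROX1 or ONECUT1, 0 rose and 2 fell (median -0.14). These were Abcg8 and Abcg5, which together export cholesterol into bile and fell by 0.62 and 0.41 (limma adjusted p 0.0187 and 0.0325).

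Lists of zonal, fetal and fasting genes, in which these factors are known to act, each held differences larger than that of any of the 9 factors. In the averaged response 14.1% of all genes passed as higher and 16.2% as lower. Of 10 pericentral genes 4 fell and 0 rose: the glutamate transporter Slc1a2 stood at -5.65, Oat at -3.25, Lhpp at -2.70 and glutamine synthetase, Glul, at -2.21 (limma adjusted p at most 5.54e-07). Of 9 periportal genes 5 rose and 0 fell, with Sds at 1.16, Cdh1 at 0.85, Hsd17b13 at 0.83 and Gls2 at 0.75, whereas 4 were higher and 2 lower with 75th percentile scaling. Of 11 fetal and progenitor genes 7 rose and 0 fell, with the imprinted RNA H19 at 6.42, Gpc3 at 4.26, Dlk1 at 3.64 and Afp at 3.23 (limma adjusted p at most 0.000165). Of 12 fasting and gluconeogenesis genes 6 rose and 0 fell, with Igfbp1 at 1.69, Pdk4 at 1.32, Sds at 1.16 and G6pc at 1.15. Comparing genotypes, these lists and the target lists held 1 call in all, a lower gene of the fasting list in controls.

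**Figure D5:**
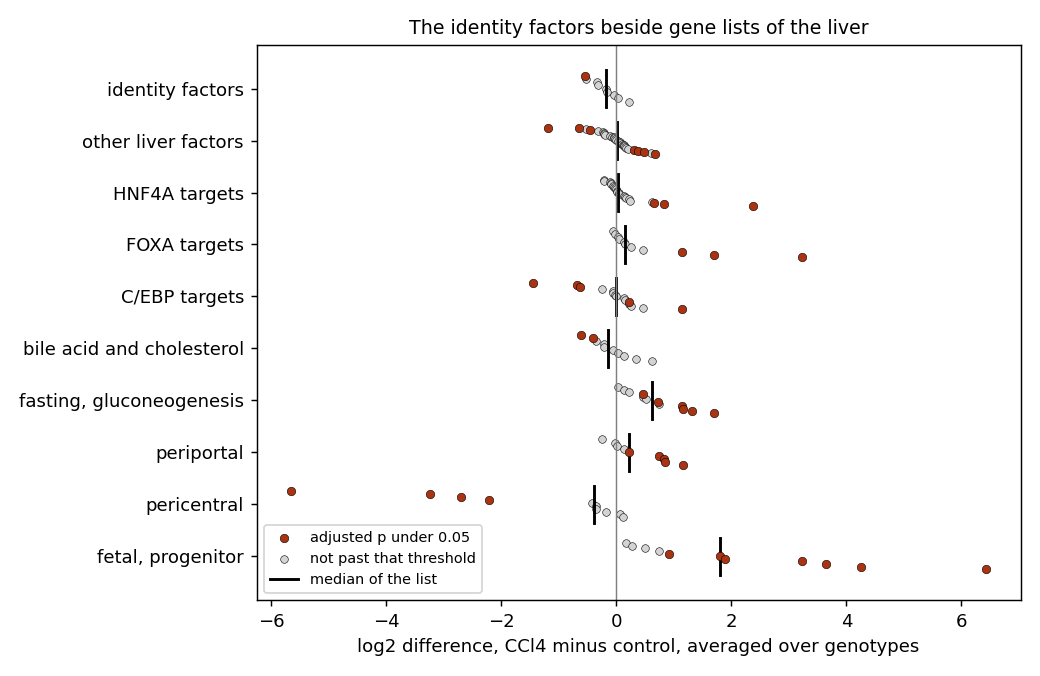
CCl4 minus control averaged over genotypes (log2, horizontal axis) for every gene of 10 lists (points, red where limma adjusted p is under 0.05), with the median of each list as a line. The 9 identity factors lie between -0.54 and 0.22, while Slc1a2 of the pericentral list is at -5.65 and H19 of the fetal list at 6.42.

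Markers of other liver cell types moved with CCl4 to differing degrees, in the averaged response where 30.3% of all genes passed. Stellate cell and myofibroblast markers had 9 of 10 genes higher, with a summed level of 16.57 to 17.45 on the control arrays and 17.74 to 18.69 on the CCl4 arrays. Cholangiocyte markers, of a cell type in which Onecut1 and Foxa2 are also active, had 2 of 7 higher, with 12.57 to 14.43 in controls and 13.99 to 15.08 with CCl4. Of the neutrophil markers 4 of 9 were higher and 0 lower, with a summed level of 16.70 to 17.37 on the control arrays and 16.43 to 17.55 on the CCl4 arrays. Of the macrophage markers 3 of 9 were higher and 1 lower, with 15.88 to 17.28 in controls and 16.34 to 17.09 with CCl4. Of the lymphocyte markers 2 of 7 were lower and 0 higher, with 14.89 to 15.79 in controls and 13.53 to 14.88 with CCl4. Of the sinusoidal endothelium markers 1 of 8 was lower and 0 higher, with 16.44 to 16.95 in controls and 16.26 to 16.71 with CCl4. With 75th percentile scaling 3 of these 8 were lower and 0 higher. The summed hepatocyte markers lay between 21.83 and 22.11 on all arrays, on a scale that leaves the brightest genes little room to move together. Of these markers 3 of 15 were higher (Cyp3a11 by 0.53, Tdo2 by 0.50 and Ass1 by 0.22), but 0 were higher and 6 lower with 75th percentile scaling (median -0.26). Of the pancreas markers, in a tissue where Nr5a2 is also abundant, 4 of 8 could be tested, of which Amy2a5 was higher and Ctrb1 and Ins2 were lower. The part of these cell types in the levels of the factors was not tested. In whole tissue, fewer hepatocytes and less RNA per hepatocyte cannot be told apart.

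For each factor the 3 genes most like it were found by Pearson r over the 16 arrays, as a description in which treatment, genotype and the shared scaling all take part. Cebpa was followed by Mga, LOC635418 and Hira (Pearson r 0.965, 0.965 and 0.964). Nr5a2 was followed by Gm12605 (0.970), Wdr63 (0.948) and Ndufa12 (0.942). Cebpb was followed by Dst (0.945), Eif2b1 (0.923) and the clock gene Per1 (0.888). Among the genes most like Prox1 were Nbn (0.871) and Usf3 (0.857). Foxa3 was followed by Samd10 (0.883), Dnajc3 (0.880) and Pank3 (0.865), and Foxa2 by Rgs3 (0.865) and Cish (0.858). The highest values for Foxa1 and Hnf4a were 0.920 with 5031420N21Rik and 0.855 with LOC627908.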

How the data were processed

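Liver RNA of 16 mice was labelled with Cy3 by the authors and hybridised to Agilent arrays, and per the file headers (Feature Extraction 10.7.3.1) the deposited files hold linear spot intensity values after background subtraction, not normalized between arrays. The authors also deposited a table of quantile-normalized log2 values, used as an alternative, and the deposited flags for outlier spots and for spots well above background. Control spots (3671 of 62976) and outlier spots were removed, log2 processed signal was quantile normalized, and spots of a probe were averaged. A probe was kept if it exceeded background clearly on 3 or more arrays, and the brightest probe stood for a gene (24357 genes). Signal over background and the number of arrays limit the precision.

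Groups came from the sample titles. One limma 3.58.1 model (R 4.3.3) over the 4 groups gave 6 contrasts, with Benjamini-Hochberg adjustment over all genes and a threshold of 0.05, and it was tested on simulated data. Exact permutation tests compared the 2 probes of Nr5a2 and of Foxa2. The members and gene lists were chosen with earlier results of these data known. Named are the 9 factors, up to 4 called genes of each list with the largest averaged response, the 3 most alike genes of a factor, and Lcn2. Markers that check the tissue label and Hnf4aos are named outside this rule. A gene that this rule names is not reported here. Same-numbered control arrays of the genotypes deviated together (r 0.233, 0.368 and 0.552), other same-numbered pairs did not all do so. The same-numbered controls also shared an array column, so number and column cannot be told apart there. Probe positions are mm9, and gene names, spans and promoters are from RefSeq GRCm38.p6. Slide, scaling, background correction, filters, array weights, the replicate block and leaving out each array were tried.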

Additional observations from a re-analysis of the deposited data

Results flagged for a closer look

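In 2 of 27 groups of 4 or 5 arrays 1 array stood apart from the others by Dixon's criterion, which chance meets in about 1 in 20 groups. Cebpb on Lcn2-/- CCl4 1 was at 16.46, with the other 3 arrays of the group between 15.61 and 15.72. Prox1 on WT control 4 was at 10.91, with the other 3 arrays between 9.86 and 10.02.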

How the results depend on the processing

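Of 1515 combinations of a factor's comparison and a setting, 1393 kept their direction and side of the threshold, 106 changed sign without passing it, 10 gained and 5 lost a call, and 1 reversed: the averaged Hnf4a difference was -0.31 with 75th percentile scaling. The WT count of factors past the threshold went from 1 to 0 with slide as a fixed block or on slide 1 alone, where Nr5a2 was at -0.67 in each and the difference rests on 1 treated array, WT CCl4 1, assumed to vary like the others, so these p-values say little of stability. The count ranged from 0 to 1 when 1 array was left out (Nr5a2 -0.65 to -0.43, limma adjusted p 0.00720 to 0.0796, lost without WT control 1 or 2). The Lcn2-/- count went from 0 to 1, Nr5a2, with 75th percentile scaling (-0.59), normexp correction (-0.53), slide as a random block (-0.52), array weights (-0.53) and without both controls numbered 3 (-0.61), and ranged from 0 to 1 when 1 array was left out (-0.61 to -0.47). The averaged count was 3 of 9 with 75th percentile scaling, where 34.9% of all genes passed, and 0 with slide as a fixed block (Nr5a2 -0.68), and ranged from 1 to 2 when 1 array was left out, with 2 without Lcn2-/- CCl4 1. The replicate block ties same-numbered arrays over all 4 groups, treated ones included. With it Nr5a2 averaged -0.49 (limma adjusted p 0.00811) and the counts of 1, 0, 1, 0, 0 and 0 over the 6 contrasts did not change. Slide 1 alone, slide 2 alone and the omission of WT CCl4 5 with Lcn2-/- CCl4 4 were chosen after seeing the data. The causes were not tested.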
